A study of Mus musculus with 2 samples.

Results

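Checkpoint receptors and their ligands were followed through the cells of mouse pancreatic tumours. The set held 5 receptors (Pdcd1, Ctla4, Lag3, Havcr2 and Tigit) and 5 ligands (Cd274, Pdcd1lg2, Lgals9, Pvr and Nectin2), 10 of the 32285 genes in the deposited matrices. They were taken by symbol, and each symbol matched 1 gene row in each library. The tumours grew from KPC cells, a line of mouse pancreatic cancer cells, that had been implanted in the pancreas, and they were taken at day 21. Control mice were Porcnfl/fl littermates, labelled WT. Knockout mice were Csf1r-Cre;Porcnfl/fl, labelled KO, so both groups carried the floxed Porcn allele and the groups differed in the Cre. The product of Porcn adds the lipid that Wnt proteins need for their secretion, and the Csf1r promoter directs the Cre to macrophages and other cells of the Csf1r-expressing lineage. The strain, sex and age of the mice were not given in the sources used here. Tumours of 5 mice were pooled into 1 library for each genotype, so the spread between mice is unknown and no test between genotypes was possible. Every difference below lies between 2 libraries, and the 95% intervals in parentheses cover counting error only.

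Checkpoint receptors are surface proteins of activated lymphocytes that dampen signalling from the antigen receptor. Pdcd1 encodes PD-1, which binds PD-L1 (Cd274) and PD-L2 (Pdcd1lg2). Ctla4 encodes a receptor that competes with CD28 for CD80 and CD86 and is abundant on regulatory T cells. Lag3 binds MHC class II and other ligands, Havcr2 encodes TIM-3, for which galectin-9 (Lgals9) is a reported ligand, and Tigit binds the poliovirus receptor (Pvr) and nectin-2 (Nectin2). Several of these receptors are expressed together on T cells under lasting antigen stimulation, and interferon gamma is a known inducer of Cd274 in tumour and myeloid cells.

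The control library held 173934025 counts of unique molecular identifiers (UMIs) and gave 11516 kept cells with a median of 12167.5 UMIs. The knockout library held 137527647 UMIs and gave 10467 kept cells with a median of 10109 UMIs. The 2 libraries shared 46 cell barcodes, 38 of them among kept cells. Cells were clustered without the 10 members and named from marker lists that hold none of them, and the ending "-like" marks such a name. The labels call the cells tumour-infiltrating, yet cells with epithelial keratins, called tumour-like, made up 81.9% of kept control and 55.2% of kept knockout cells. Lymphocyte classes were small in control, with 116 CD8-like, 36 CD4-like, 19 Foxp3 T-like and 35 NK-like cells against 689, 206, 269 and 238 in knockout. Every marker of each of these 4 lists had UMIs in each library. Porcn, the targeted gene, had 8 UMIs in control macrophage-like cells (3.26 CPM, UMIs per 1000000) and 4 UMIs in knockout macrophage-like cells (1.42 CPM), a ratio of 0.434 with an interval of 0.0957 to 1.62. In tumour-like cells it was 7.43 and 5.04 CPM. Its loss could not be judged at this depth, and 3′ counts do not show whether an allele was recombined.

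Upstream sequences are shown for 3 members whose levels differed between tumour-like clusters, as described further on. Promoters of 8 of the 10 members were found in the RefSeq table (build GRCm38.p6). In each, the 250 bases before the gene's start were searched on both strands for 4 motifs. These were an interferon regulatory factor element GAAANNGAAA, the gamma-activated sites TTCNNNGAA and TTCNNNNGAA, and an AP-1 site TGANTCA. The share of all 32851 promoters with a match was 2.98%, 7.02%, 5.85% and 6.75%, in that order. Capitals mark a match, and a match is a string of letters, not a shown site. Cd274 (chr19:29367188-29367437, plus strand) had none of the 4. Havcr2 (chr11:46454681-46454930, plus strand) had the AP-1 letters from 200 to 194 bases before the start. Lgals9 (chr11:78984925-78985174, minus strand) had the interferon regulatory factor letters on the reverse strand, from 55 to 46 bases before the start. Pdcd1lg2, not shown, had TTCNNNNGAA from 82 to 73 bases before its start. The other 4 promoters, of Pdcd1, Ctla4, Tigit and Nectin2, held no match.
Cd274: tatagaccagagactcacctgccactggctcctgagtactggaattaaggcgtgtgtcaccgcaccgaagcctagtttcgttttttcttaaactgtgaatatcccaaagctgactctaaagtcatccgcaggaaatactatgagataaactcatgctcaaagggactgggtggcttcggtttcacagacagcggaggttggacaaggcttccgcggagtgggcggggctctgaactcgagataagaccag
Havcr2: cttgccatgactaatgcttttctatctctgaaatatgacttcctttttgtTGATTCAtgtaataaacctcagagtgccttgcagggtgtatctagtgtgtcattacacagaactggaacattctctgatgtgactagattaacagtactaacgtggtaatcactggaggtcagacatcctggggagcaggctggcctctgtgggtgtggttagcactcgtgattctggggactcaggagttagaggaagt
Lgals9: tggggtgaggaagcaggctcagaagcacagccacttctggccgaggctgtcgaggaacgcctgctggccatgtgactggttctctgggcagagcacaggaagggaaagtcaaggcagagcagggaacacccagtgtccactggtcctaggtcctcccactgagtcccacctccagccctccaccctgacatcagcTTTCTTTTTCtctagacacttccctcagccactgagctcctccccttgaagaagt
Cd274 and Pdcd1lg2 are neighbours on chromosome 19 with a gap of 22.8 kb, and Nectin2 and Pvr lie 153 kb apart on chromosome 7.

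Within lymphocytes, all 5 receptors had UMIs in CD8-like, CD4-like and Foxp3 T-like cells of each library. Levels are given as UMIs per 1000000 UMIs of the class (CPM). Their sum was lower in knockout than in control in each of the 4 lymphocyte classes. In CD8-like cells the control sum of 1497 CPM (1377 to 1625) stood against 1136 CPM (1097 to 1177) in knockout, a log2 ratio of knockout over control of -0.40 (-0.53 to -0.27). In CD4-like cells the sum was 1125 and 944 CPM, a log2 ratio of -0.25 (-0.49 to -0.01). In Foxp3 T-like cells it was 2204 and 1780 CPM, a log2 ratio of -0.31 (-0.57 to -0.03). In NK-like cells it was 212 and 124 CPM, a log2 ratio of -0.77 (-1.39 to -0.11). The control values rest on 570, 167, 123 and 28 receptor UMIs. With called doublets kept, the Foxp3 T-like ratio turned to 0.62, on 9 control cells.

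**Figure D1:**
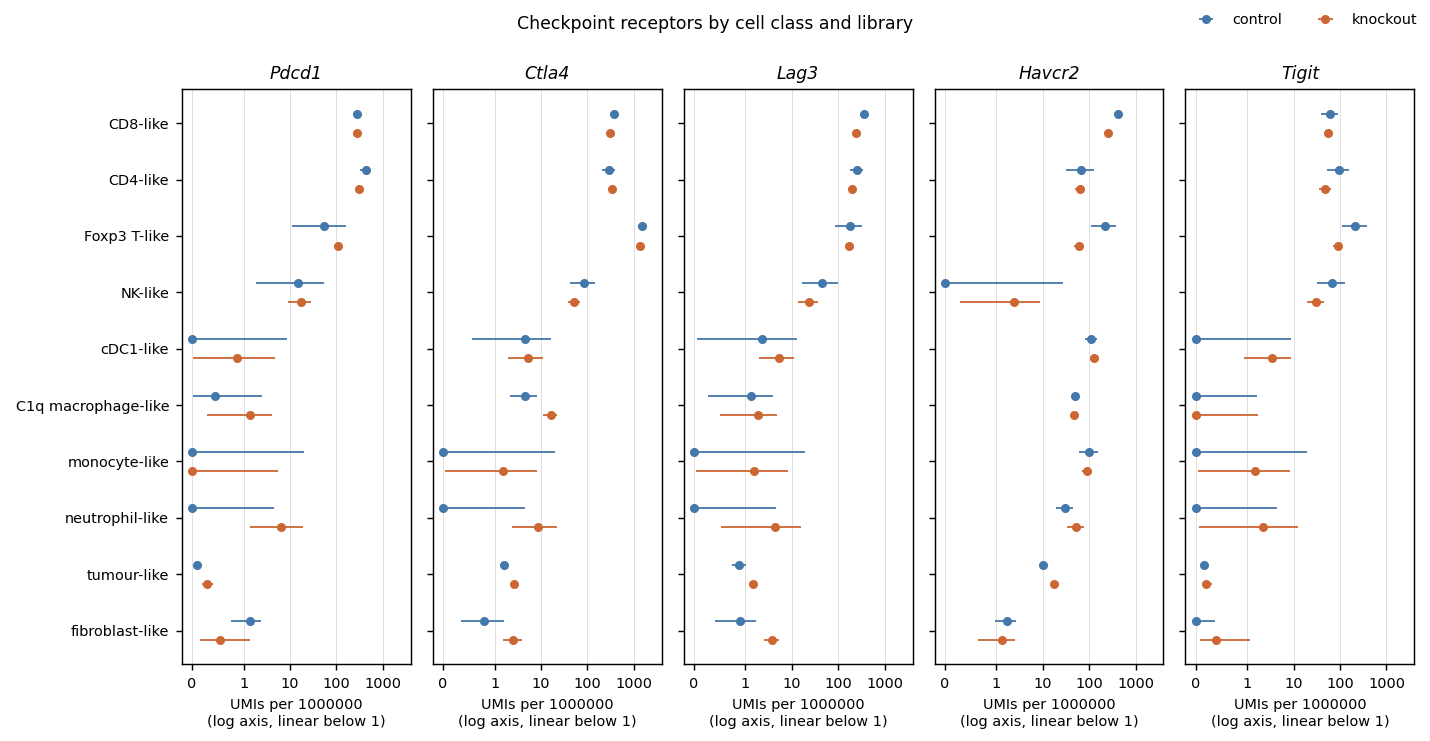
Level of each receptor (UMIs per 1000000 UMIs of the class, log axis that is linear below 1) in 10 cell classes, control in blue and knockout in orange, each point 1 pooled library with its exact 95% Poisson interval. Pdcd1, Ctla4, Lag3 and Tigit lay highest in the T-like classes, while Havcr2 also stood between 10.3 and 129 CPM in the cDC1-like, C1q macrophage-like, monocyte-like, neutrophil-like and tumour-like classes.

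In CD8-like cells, Havcr2 and Lag3 were the receptors with the widest gap between the libraries. Havcr2, which encodes TIM-3, stood at 410 CPM in control (156 UMIs) and 256 CPM in knockout (693 UMIs), a log2 ratio of -0.68 (-0.93 to -0.42). Lag3 stood at 362 and 242 CPM, a log2 ratio of -0.58 (-0.85 to -0.31). Neither pair of intervals on the levels overlapped. The 10 control cells with the most Lag3 held 42.8% of its UMIs, and Havcr2 was more concentrated still. The intervals on the levels do not allow for this. Havcr2 had a UMI in 43.1% of control (33.9 to 52.6) and 39.2% of knockout cells (35.5 to 42.9). Lag3 had a UMI in 52.6% (43.1 to 61.9) and 44.7% (40.9 to 48.5). These shares overlapped. With cells thinned as described below, they overlapped at 1000 UMIs and were apart at 2000 UMIs for both genes. Ctla4 was 383 CPM in control and 311 CPM in knockout, a log2 ratio of -0.30 (-0.56 to -0.04). That ratio was 0.06 with a looser filter on cells. Pdcd1 was 281 and 274 CPM, a log2 ratio of -0.04 (-0.33 to 0.27), and Tigit was 60.4 and 53.9 CPM, a log2 ratio of -0.16 (-0.80 to 0.54). For these 2 receptors the interval held no change, and it allowed a knockout level down to 0.795 times the control level for Pdcd1 and 0.572 times for Tigit.

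Ligand genes were also counted in CD8-like cells. Lgals9, which encodes galectin-9, was 23.6 CPM in control (9 UMIs) and 63.1 CPM in knockout (171 UMIs), a log2 ratio of 1.42 (0.46 to 2.57). Cd274 was 81.4 and 75.3 CPM, Pdcd1lg2 was 34.1 and 48.0 CPM, and Pvr was 5.25 and 13.3 CPM on 2 and 36 UMIs. Nectin2 had 0 and 1 UMIs. Tumour-like cells held Lgals9 at 96.3 and 102 CPM, and the 7 epithelial markers, of which 5 and 6 had UMIs, summed to 239 CPM in control and 194 CPM in knockout CD8-like cells, against 6173 and 6330 CPM in tumour-like cells. The part of RNA from other cells in the Lgals9 and Pvr values was not tested. Of the 9 members with at least 20 UMIs over both libraries, 2 (Lgals9 and Pvr) lay past 2-fold in CD8-like cells, where 11.7% of 9081 genes did. Pvr reached 20 UMIs through the knockout library, and its interval on the ratio, 0.651 to 21.7, held no change.

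The CD8-like class held 3 clusters that differed in their receptors. Cluster t5, led by Ccl3, Gzmk and Ifng, had Havcr2 at 460 CPM in control and 326 CPM in knockout. It held 58 control and 389 knockout cells. In t5, Lag3 stood at 429 and 310 CPM and Pdcd1 at 343 and 332 CPM. Cluster t4, led by Cd8b1, Ccl5 and Ly6c2, had the lowest level of each of the 5 receptors among the 3 clusters in knockout, with Havcr2 at 34.4 CPM, Lag3 at 39.1 CPM and Pdcd1 at 102 CPM. It made up 30.5% of the CD8-like cells in knockout (210 cells) and 11.2% in control (13 cells). Cluster t8 had median depths of 1358 and 1563.5 UMIs and made up 38.8% of the control and 13.1% of the knockout class. In t8, Ctla4 was 755 CPM in control (56 UMIs) and 345 CPM in knockout (58 UMIs). Within t5 the log2 ratios were -0.49 for Havcr2, -0.47 for Lag3 and 0.21 for Ctla4, the last with an interval on the ratio of 0.919 to 1.47. With the 3 clusters weighted alike, the log2 ratio of the receptor sum was -0.21 in place of -0.40.

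**Figure D2:**
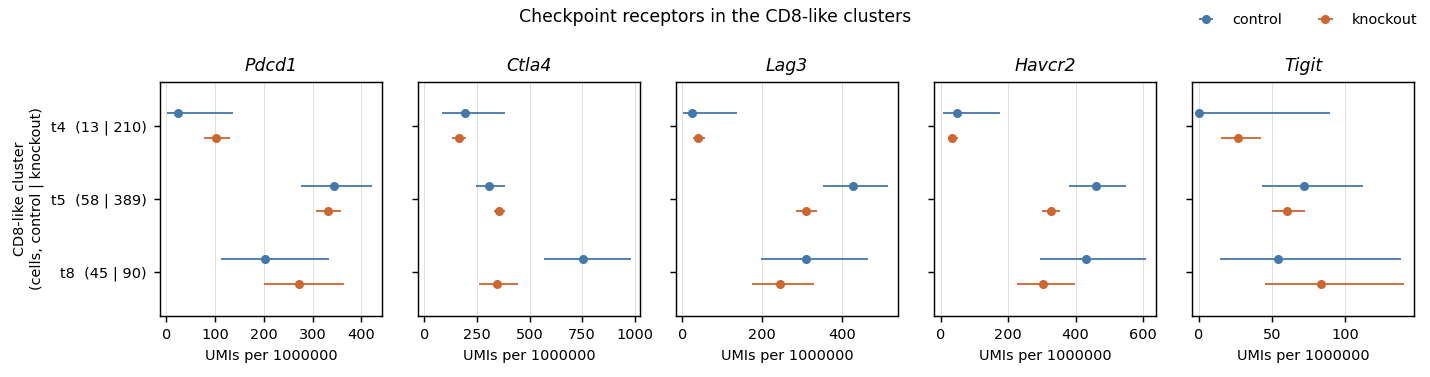
Level of each receptor (UMIs per 1000000 UMIs of the cluster, linear axes that differ between panels) in the 3 CD8-like clusters, control in blue and knockout in orange, with exact 95% Poisson intervals and cell numbers beside each cluster name. Havcr2 and Lag3 in t5 lie lower in knockout, Ctla4 in t8 is 755 CPM in control and 345 CPM in knockout, and t4 has wide control intervals on 13 cells.

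The number of different receptors detected in a single CD8-like cell was compared after thinning each cell to 1000 UMIs, because the median depth was 2667.5 UMIs in control and 3467 UMIs in knockout. At least 1 receptor was detected in 65.8% of the 111 cells from control (56.2 to 74.5), compared with 53.3% of the 675 from knockout (49.5 to 57.1). At least 2 receptors were detected in 31.5% of the former (23 to 41), compared with 21.2% of the latter (18.2 to 24.5). Both pairs of intervals overlapped slightly. Thinning to 2000 UMIs gave 61.8% and 41.1% (37.0 to 45.3) for at least 2 receptors, with the control interval wholly above that of knockout and with 40 control and 122 knockout cells left out. Without thinning the shares were 61.2% and 55.2%, and their intervals overlapped. In tumour-like cells thinned to 1000 UMIs, Pdcd1 was seen in 0 of 9387 control and 0 of 5747 knockout cells, with exact upper bounds of 0.0393% and 0.0642%. Lag3 was seen there in 0.0426% and 0.174% of cells, and Ctla4 in 0.117% and 0.331%. The median depth of tumour-like cells was 13296.5 and 14979 UMIs before thinning, far above that of CD8-like cells. RNA from other cells can be a smaller part of such deep cells. These shares therefore do not give the background of CD8-like cells.

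**Figure D3:**
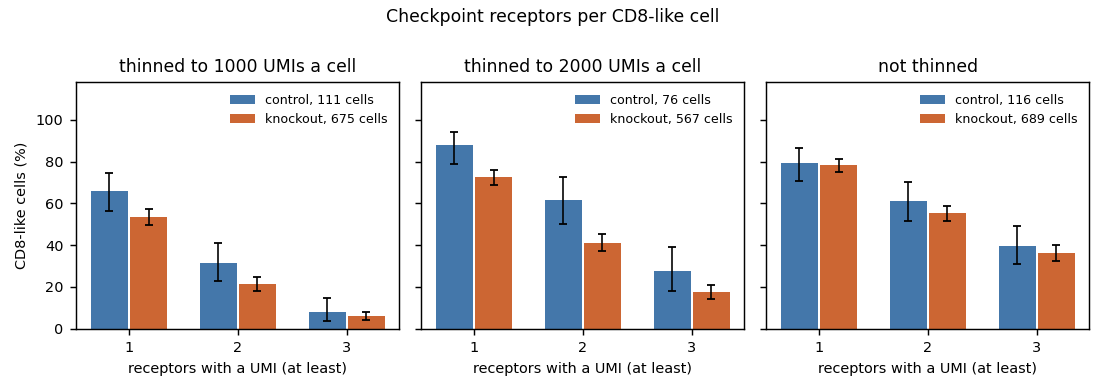
Share of CD8-like cells (%) with UMIs of at least 1, 2 or 3 of the 5 receptors, at 2 thinned depths and without thinning, control in blue and knockout in orange with exact 95% binomial intervals. At both thinned depths the control bars for at least 1 and at least 2 receptors stand above the knockout bars (31.5% against 21.2% for at least 2 at 1000 UMIs), with intervals apart at 2000 UMIs, and without thinning the intervals overlap.

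In the knockout library, CD8-like cells with a given receptor more often held another as well, except for the pair of Ctla4 and Tigit. At 2000 UMIs a cell, Lag3 was detected in 47.7% of the 151 knockout cells with Havcr2 and in 26.4% of the 416 without it. Lag3 was detected in 42.4% of the 210 knockout cells with Pdcd1 and in 26.1% of the 357 without it. In control, Lag3 was found in 58.8% of the 34 cells with Havcr2 and 45.2% of the 42 without. Other control pairs went the other way, such as Havcr2, found in 42.4% of the 33 cells with Pdcd1 and 46.5% of the 43 without, and in 41.4% of the 29 cells with Ctla4 and 46.8% of the 47 without. Tigit was found in 14.6% of knockout cells with Havcr2 and 8.65% of those without. These shares describe cells of 1 library each.

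The CD4-like class was cluster t3 alone and left out the unnamed clusters t2 and t7, described below. In CD4-like cells, Pdcd1 was the receptor with the clearest gap. It was 424 CPM in control (63 UMIs) and 300 CPM in knockout (310 UMIs), a log2 ratio of -0.50, and the interval on the ratio was 0.538 to 0.942. Tigit was 94.3 and 47.4 CPM on 14 and 49 UMIs, with an interval on the ratio of 0.273 to 0.986. Ctla4 was 290 and 340 CPM, Lag3 was 249 and 193 CPM, and Havcr2 was 67.4 and 63.9 CPM, all with intervals on the ratio that held no change. Cd274 was 148 and 87.1 CPM in these cells, on 22 and 90 UMIs. Lgals9 was 13.5 and 62.9 CPM, on 2 and 65 UMIs. It was the 1 member of 8 tested that lay past 2-fold in CD4-like cells, where 16.1% of genes did.

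Foxp3 T-like cells carried the highest Ctla4 level of any named class. Ctla4 was 1541 CPM in control and 1348 CPM in knockout, with an interval on the ratio of 0.703 to 1.10. The log2 ratio of -0.19 turned to 0.17 with the stricter cell filter, 0.12 with cells weighted alike and 2.91 with called doublets kept, the last on 9 control cells. These cells held 14.7% of all Ctla4 UMIs of kept control cells and 35.9% of those of kept knockout cells, at 19 and 269 cells. Havcr2 was 215 CPM in control on 12 UMIs and 61.3 CPM in knockout on 60 UMIs, with an interval on the ratio of 0.152 to 0.582. Tigit was 215 and 88.9 CPM, with an interval of 0.225 to 0.831. Lag3 was 179 and 173 CPM, and Pdcd1 was 53.7 CPM on 3 UMIs and 109 CPM on 107 UMIs. The Pdcd1 interval on the ratio, 0.677 to 10.0, held no change. Of 8 members tested, 3 (Pdcd1, Havcr2 and Tigit) lay past 2-fold, where 29.6% of genes did with 19 control cells.

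NK-like cells had a lower receptor level than the 3 T-like classes. Ctla4 was 83.3 CPM in control and 51.8 CPM in knockout, Tigit was 68.2 and 30.1 CPM, and Lag3 was 45.4 and 22.9 CPM. Each of the 3 intervals on the ratio held no change, on 11, 9 and 6 control UMIs. Havcr2 had 0 UMIs in control and 2 in knockout NK-like cells, and a count of 0 allowed up to 22.7 CPM in control. Of 6 members tested, 1 (Tigit) lay past 2-fold in NK-like cells, where 16.2% of genes did.

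The T-like clusters that stayed unnamed differed from the named ones. Clusters t2 and t7 scored best on the CD4 T list. They stayed unnamed for low depth and because no marker of that list was among their leading genes. Depth was judged against the median of all kept cells, most of them tumour-like. The medians of t2 and t7 were 3292 and 2387.5 UMIs, beside 2952.5 UMIs in the named Foxp3 T-like and 3179 UMIs in the named NK-like cluster. The CD4-like levels above therefore leave out the 169 and 184 knockout cells of t2 and t7, beside 206 knockout cells in the CD4-like class. Cluster t2, led by Ccr7 and Lef1, held 1 control and 169 knockout cells, and its knockout cells had Pdcd1 at 8.35 CPM, Lag3 at 5.01 CPM and Havcr2 at 0. Cluster t7, with Tcf7 and Klf2 among its leading genes, held 6 and 184 cells, with Pdcd1 at 38.9 CPM and Ctla4 at 246 CPM in knockout. Cluster t9, led by histone genes of dividing cells, held 10 and 95 cells. In t9, Ctla4 was 72.2 CPM on 4 UMIs in control and 547 CPM on 525 UMIs in knockout. Of the 95 knockout cells of t9, 55 had a Cd8a or Cd8b1 UMI and 19 a Foxp3 UMI, and of the 10 control cells 9 and 0 did.

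Havcr2 was also found outside lymphocytes. It was 111 CPM in control and 129 CPM in knockout cDC1-like cells, 101 and 89.8 CPM in monocyte-like cells, and 48.6 and 47.4 CPM in C1q macrophage-like cells. The knockout to control interval held no change in each of these 3 classes. The order of knockout levels was CD8-like cells, cDC1-like cells, monocyte-like cells, CD4-like cells, Foxp3 T-like cells, neutrophil-like cells (52.0 CPM) and C1q macrophage-like cells, and from cDC1-like cells onward neighbours had overlapping intervals. Migratory DC-like cells had 0 and 1 Havcr2 UMIs.

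Tumour-like cells held 78.3% of the Havcr2 UMIs of kept control cells and 56.8% of those of kept knockout cells, through their number. Their level was 10.3 CPM in control and 17.5 CPM in knockout. Cluster a7 carried most of it. It was led by Dynap, Prl2c2, Prl2c3, Grem1 and Areg, and had Inhba at 632 and 590 CPM. Havcr2 in a7 was 55.0 CPM in control and 61.1 CPM in knockout, and was seen in 46.7% of 782 control and 48.7% of 1031 knockout cells at median depths of 16005 and 17728 UMIs. This cluster supplied 53.9% of the tumour-like Havcr2 UMIs in control and 72.7% in knockout. The other 10 tumour-like clusters had between 0.245 and 13.9 CPM in control and between 0.877 and 15.3 CPM in knockout. Cluster a7 was 8.29% of the tumour-like cells in control and 17.8% in knockout, and with the 11 clusters weighted alike the log2 ratio of Havcr2 in tumour-like cells was 0.12 in place of 0.77.

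Leukocyte genes were read in a7 as well. Ptprc, the pan-leukocyte gene, was 1.52 CPM in control and 6.59 CPM in knockout a7 cells, Csf1r was 0.594 and 0.291 CPM, and Cd3e was 0.132 and 1.41 CPM. The 9 macrophage markers summed to 44.9 and 40.2 CPM there, against 12282 and 18846 CPM in C1q macrophage-like cells, whose own Havcr2 level was 48.6 and 47.4 CPM. All 9 had UMIs in a7 in each library, and their sum over the 11 tumour-like clusters ran from 13.3 to 530 CPM in control and from 16.9 to 868 CPM in knockout, with a2 highest and a7 next. The cDC1 markers summed to 72.0 and 71.9 CPM in a7, within 29.4 to 127 and 24.7 to 160 CPM over the clusters, against 4942 and 5078 CPM in cDC1-like cells. The T markers summed to 4.16 and 22.3 CPM in a7, and over all 11 clusters to between 0.935 and 9.57 CPM in control and 2.74 and 68.7 CPM in knockout. The part of RNA from these cell types in the Havcr2 level of a7 was not tested. The keratin genes Krt8 and Krt19 were 1366 and 1655 CPM in control a7 cells. Of the 7 epithelial markers, Krt8, Krt18, Krt19 and Cdh1 counted as detected when a7 was named. Epcam, Krt7 and Cldn4 did not. The other tumour-like clusters had the same detected markers as a7, except a2, where all 7 counted.

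The 4 other receptors were low in tumour-like cells, though by their number these cells held 41.6% of the Ctla4, 35.9% of the Lag3 and 27.4% of the Tigit UMIs of kept control cells, and 7.09%, 10.2% and 4.74% in knockout. Ctla4 was 1.62 CPM in control and 2.64 CPM in knockout, Lag3 was 0.879 and 1.45 CPM, Tigit was 0.153 and 0.202 CPM, and Pdcd1 was 0.0866 and 0.283 CPM. Pdcd1 and Pdcd1lg2 were the 2 of 10 members past 2-fold in tumour-like cells, where 7.92% of 17414 genes were, and they rest on 13 and 28 and on 7 and 22 UMIs. The T markers in tumour-like clusters, given above, were also higher in knockout, and their part in these values was not tested. In macrophage-like cells Ctla4 was the 1 of 7 members tested past 2-fold, where 7.02% of genes were. It had 10 UMIs in control and 36 in knockout, and 27 of the knockout UMIs came from 5 cells of 1 C1q macrophage-like cluster.

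Cd274, which encodes PD-L1, was highest in monocyte-like cells in control and in neutrophil-like cells in knockout, and its ratio lay on opposite sides of no change in these classes. In neutrophil-like cells it was 504 CPM in control (416 UMIs in 293 cells) and 2057 CPM in knockout (950 UMIs in 185 cells), a log2 ratio of 2.03 (1.86 to 2.20). In monocyte-like cells it was 1164 CPM in control (219 UMIs in 56 cells) and 766 CPM in knockout (512 UMIs in 156 cells), a log2 ratio of -0.60, and the interval on the ratio was 0.561 to 0.775. The 10 monocyte-like cells with the most Cd274 held 49.8% of its control and 24.6% of its knockout UMIs. Cd274 had a UMI in 83.9% of control (71.7 to 92.4) and 76.9% of knockout monocyte-like cells (69.5 to 83.3), and these intervals overlapped. In C1q macrophage-like cells Cd274 was 310 and 358 CPM, a log2 ratio of 0.21, with an interval on the ratio of 1.04 to 1.28. In tumour-like cells it was 49.2 and 77.6 CPM, a log2 ratio of 0.66, with an interval of 1.53 to 1.63. Migratory DC-like cells stood at 618 and 451 CPM and cDC1-like cells at 92.8 and 94.4 CPM, and both intervals on the ratio held no change. Fibroblast-like cells were low, at 9.22 and 11.6 CPM. Among these myeloid classes the order in control was monocyte-like, migratory DC-like, neutrophil-like, C1q macrophage-like and cDC1-like cells, and migratory DC-like and neutrophil-like cells had overlapping intervals. In knockout the neutrophil-like class came first, with no overlap with the next.

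**Figure D4:**
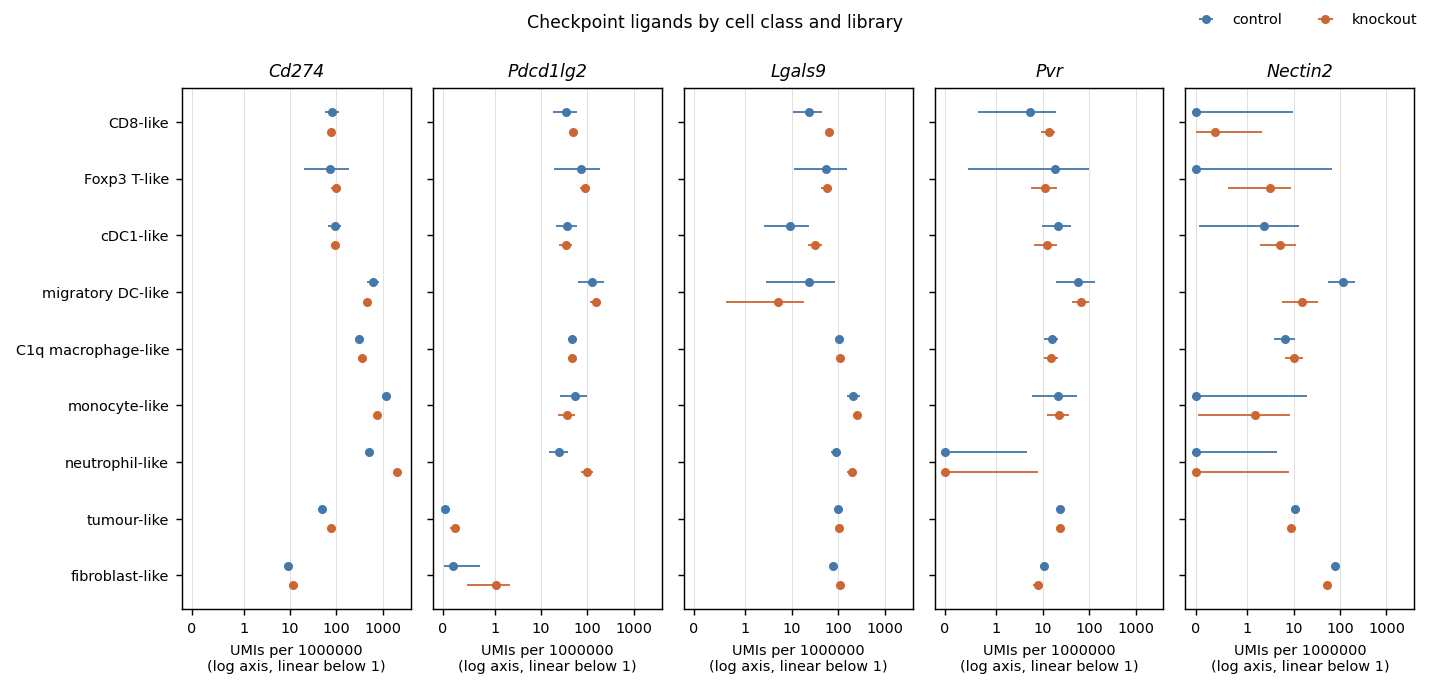
Level of each ligand (UMIs per 1000000 UMIs of the class, log axis that is linear below 1) in 9 cell classes, control in blue and knockout in orange, each point 1 pooled library with its exact 95% Poisson interval. Cd274 in neutrophil-like cells is 504 CPM in control and 2057 CPM in knockout, Pdcd1lg2 is near 0 in tumour-like and fibroblast-like cells, and Nectin2 lies higher in fibroblast-like than in tumour-like cells.

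The neutrophil-like Cd274 came almost whole from cluster b17, led by G0s2, Hdc and Cxcr2, with Cxcl2 also among its leading genes. Cluster b17 held 96.4% of the class's Cd274 UMIs in control and 96.5% in knockout. It was 46.4% of the control and 76.8% of the knockout neutrophil-like cells. Within b17, Cd274 was 1659 CPM in control and 3115 CPM in knockout, a log2 ratio of 0.91, with an interval on the ratio of 1.67 to 2.12. In cluster b5, led by Hdc and Cxcr2, it was 79.6 and 417 CPM on 14 and 26 UMIs. In cluster b10, led by genes of immature granules such as Camp and Ngp, it had 1 and 7 UMIs. Weighting the 3 clusters alike gave a log2 ratio of 0.99 for the class. After thinning to 1000 UMIs, Cd274 was detected in 27.2% of the 279 cells from control (22.1 to 32.9), compared with 63.4% of the 183 from knockout (56.0 to 70.4), and unthinned in 30.0% and 70.3%. Fibroblast-like cells gave 8.21% of control and 7.99% of knockout cells with a Cd274 UMI at median depths of 12411.5 and 9129 UMIs. The 10 cells with the most Cd274 held 32.5% of the control and 23.1% of the knockout UMIs of the class.

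Other ligands were also higher in knockout neutrophil-like cells. Pdcd1lg2, the neighbouring gene, was 24.2 CPM in control (20 UMIs) and 99.6 CPM in knockout (46 UMIs), with an interval on the ratio of 2.38 to 7.34. Cluster b17 held 95.0% and 93.5% of these UMIs, and within it the ratio was 1.86 (1.06 to 3.38). Lgals9 was 87.2 and 193 CPM, with an interval of 1.60 to 3.06, and its ratio within b17 was 2.18 (1.37 to 3.56). Pvr and Nectin2 had 0 UMIs in each library, which allowed up to 3.63 CPM in control and 6.50 CPM in knockout. Cd274, Pdcd1lg2 and Lgals9 were the 3 of 4 members tested past 2-fold in neutrophil-like cells, where 16.9% of genes were. The 7 neutrophil markers summed to 158512 CPM in control and 79116 CPM in knockout cells of this class. The part of that difference in the ligand values was not tested.

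Among tumour-like clusters Cd274 followed the interferon genes. Cluster a11, led by Ubd, Ifit3b, Ifit3, Ifit1 and Cxcl10, had Cd274 at 195 CPM in control and 196 CPM in knockout, with an interval on the ratio of 0.944 to 1.06. It was seen in 76.0% of 575 control and 78.9% of 716 knockout cells of a11. The other 10 clusters lay between 23 and 73.6 CPM in control and between 12.4 and 84.2 CPM in knockout. Over the 11 clusters, Pearson's r between Cd274 and Ifit3 was 0.84 in control and 0.85 in knockout, as a description of clusters that share a library. Cluster a11 was 6.09% of tumour-like cells in control and 12.4% in knockout, and a1, led by Cxcl15 and Ubd, was 8.08% and 12.6%. Within clusters, the interval on the ratio lay above no change in 8 of the 11, with ratios from 1.12 in a7 to 1.81 in the dividing cluster a10 (44.3 and 80.4 CPM). It held no change in a11 and a12 and lay below it in a2 (27.2 and 12.4 CPM). With the 11 clusters weighted alike the log2 ratio of Cd274 in tumour-like cells was 0.28 in place of 0.66.

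**Figure D5:**
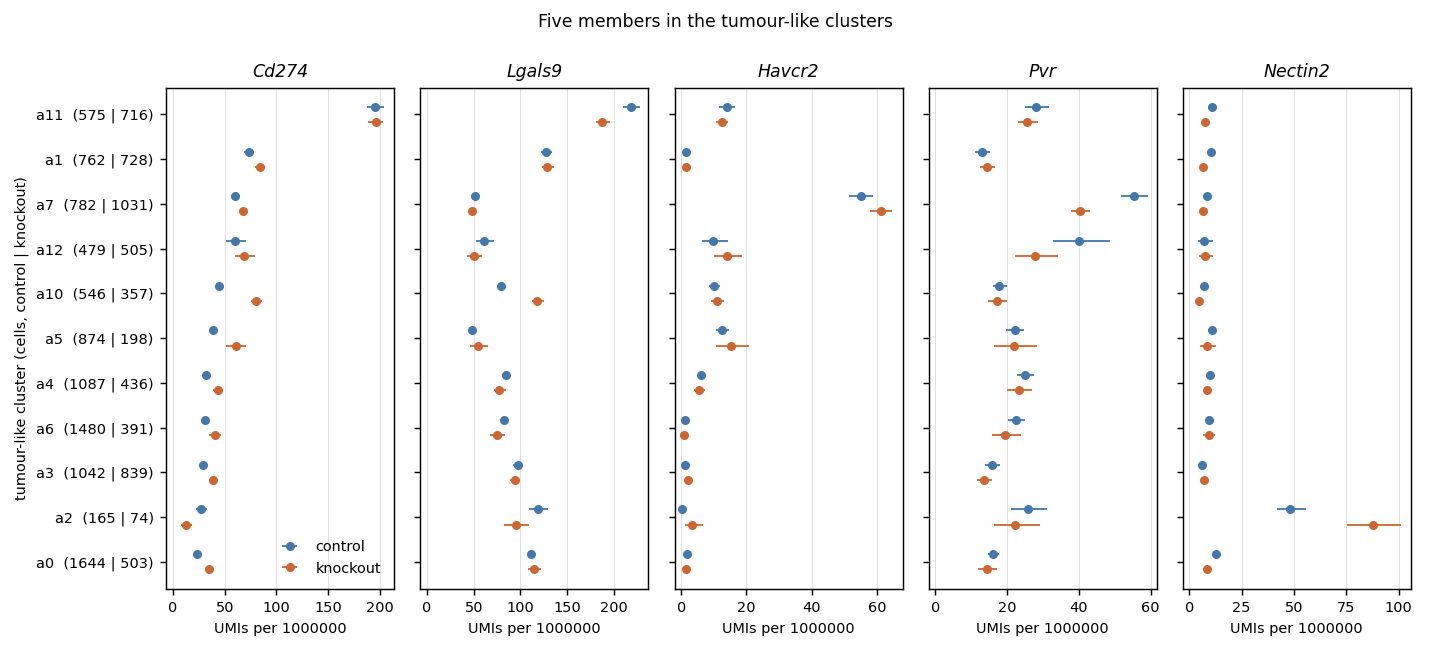
Level of 5 members (UMIs per 1000000 UMIs of the cluster, linear axes that differ between panels) in the 11 tumour-like clusters, ordered by control Cd274, control in blue and knockout in orange, with exact 95% Poisson intervals and cell numbers beside each cluster. Cd274 and Lgals9 peak in a11, Havcr2 and Pvr in a7 and Nectin2 in a2, in each library.

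Lgals9 was spread over many classes. Tumour-like cells had 96.3 CPM in control and 102 CPM in knockout, and they held 90.7% and 80.3% of its UMIs. Its peak among tumour-like clusters was also a11, at 219 and 188 CPM. Monocyte-like cells had 213 and 248 CPM, C1q macrophage-like cells 102 and 110 CPM, and fibroblast-like cells 78.0 and 110 CPM. The interval on the ratio held no change for monocyte-like and C1q macrophage-like cells and was 1.28 to 1.56 for fibroblast-like cells. cDC1-like cells had 4 and 37 UMIs, 9.28 and 32.0 CPM, with an interval on the ratio of 1.24 to 13.3. In dendritic-like cells as a whole Lgals9 (upward) and Nectin2 (downward) were the 2 of 6 members tested past 2-fold, where 9.36% of genes were. Lgals9 had 6 and 39 UMIs there, and its interval on the ratio, 0.914 to 6.29, held no change. Nectin2 had 11 and 12 UMIs, with an interval of 0.147 to 0.913. Migratory DC-like cells held 10 of its 11 control UMIs, and cDC1-like cells had 1 and 6 Nectin2 UMIs.

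Pdcd1lg2, which encodes PD-L2, was a gene of myeloid and lymphoid cells here. Migratory DC-like cells had 128 and 151 CPM, C1q macrophage-like cells 46.9 and 47.4 CPM, and monocyte-like cells 53.2 and 35.9 CPM. Tumour-like cells had 0.0466 and 0.223 CPM. Macrophage-like cells held 49.6% of its UMIs in control and 14.4% in knockout, and CD8-like cells 5.56% and 14.8%. B-like cells, with 8 control and 449 knockout cells, held 12.3% of its UMIs in knockout.

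The Tigit ligands differed in where they were found. Pvr was 23.7 CPM in control and 23.3 CPM in knockout tumour-like cells, which held 93.6% and 87.8% of its UMIs. Its interval on the ratio was 0.930 to 1.03. Within the tumour-like class Pvr peaked in a7, at 55.4 CPM in control and 40.4 CPM in knockout, a log2 ratio of -0.46 with an interval on the ratio of 0.661 to 0.803. Cluster a12 followed at 40.1 and 27.8 CPM, and the other 9 clusters lay between 13.1 and 28.2 CPM in control and between 13.6 and 25.7 CPM in knockout. Migratory DC-like cells had Pvr at 58.3 and 66.6 CPM on 5 and 26 UMIs, monocyte-like cells at 21.3 and 22.5 CPM, macrophage-like cells at 15.9 and 17.0 CPM, and fibroblast-like cells at 10.8 and 7.89 CPM.

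Nectin2 was higher in fibroblast-like cells than in tumour-like cells. Fibroblast-like cells had 76.4 CPM in control and 51.1 CPM in knockout, with an interval on the ratio of 0.590 to 0.757. The fibroblast-like cluster a13 had 111 and 78.9 CPM and a14 had 41.6 and 49.4 CPM. Within these clusters the intervals on the ratio, 0.489 to 1.01 in a13 and 0.997 to 1.42 in a14, held no change. Cluster a13 was 39.3% of the fibroblast-like cells in control and 6.03% in knockout. Tumour-like cells had 10.6 and 8.77 CPM, with an interval of 0.759 to 0.898, and acinar-like cells 20.9 and 12.6 CPM on 12 and 56 UMIs. The small tumour-like cluster a2, led by Phgr1, Lgals4 and Sftpd, had Nectin2 at 48.3 CPM in 165 control cells and 87.6 CPM in 74 knockout cells, with an interval on the ratio of 1.48 to 2.22. Migratory DC-like cells had 117 CPM on 10 UMIs in control and 15.4 CPM on 6 UMIs in knockout, with an interval of 0.0394 to 0.401.

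Ligands of Ctla4 and Lag3 outside the set were read beside them. Cd80, a Ctla4 and CD28 ligand, was 571 CPM in control and 210 CPM in knockout migratory DC-like cells (49 and 82 UMIs), a log2 ratio of -1.44. Cd86, the other such ligand, was 443 and 223 CPM in migratory DC-like cells, a log2 ratio of -0.99. In macrophage-like cells Cd80 was 48.2 and 24.8 CPM, while Cd86 was 203 and 290 CPM. In neutrophil-like cells Cd80 was 280 and 238 CPM. H2-Ab1, an MHC class II chain to which Lag3 can bind, was 6011 and 5953 CPM in dendritic-like cells. The interval on that ratio, 0.951 to 1.03, held no change. In both parts of this class H2-Ab1 was higher in knockout. It was 7147 and 7661 CPM in cDC1-like cells, with an interval of 1.03 to 1.12. In migratory DC-like cells it was 303 and 897 CPM, with an interval of 1.99 to 4.60 and UMIs in 9 of 18 control and 29 of 62 knockout cells. Those cells, the part with the lower level, were 18 of 72 control and 62 of 187 knockout dendritic-like cells. H2-Ab1 was 3021 and 3626 CPM in macrophage-like, 302 and 393 CPM in tumour-like and 178 and 78.0 CPM in fibroblast-like cells. In neutrophil-like cells it was 42.4 and 238 CPM, with UMIs in 22 of 293 control and 19 of 185 knockout cells. Fgl1, a further reported Lag3 ligand, had 3 and 1 UMIs in tumour-like cells.

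A list of 35 other checkpoint genes and a list of 24 regulators of checkpoint genes were counted in the same way. In CD8-like cells 0 of 23 tested checkpoint genes lay past 2-fold upward and 2 downward, Cd200 (76.2 and 27.3 CPM) and Cd80 (44.6 and 17.0 CPM), against 11.7% of all genes in either direction. The median log2 ratio was -0.21 for that list, -0.30 for the 5 receptors and 0.01 for all 9081 genes tested. Among 22 tested regulators in CD8-like cells, Ifng, which encodes interferon gamma, was the 1 past 2-fold, at 854 CPM in control and 363 CPM in knockout, a log2 ratio of -1.23. In CD4-like cells 1 of 18 checkpoint genes lay past 2-fold upward and 2 downward, Klrc1 and Entpd1, against 16.1% of all genes. Tox2, a regulator linked to T cell dysfunction, was 94.3 CPM on 14 UMIs in control and 8.71 CPM on 9 UMIs in knockout CD4-like cells. In Foxp3 T-like cells 3 of 17 checkpoint genes lay past 2-fold upward and 1 downward, and of 20 regulators 3 and 2 did, shares below the 29.6% of all genes there.

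The same 2 lists were counted in the remaining classes. In NK-like cells 3 of 17 checkpoint genes and 1 of 20 regulators lay upward and 0 downward, against 16.2% of all genes in either direction. In dendritic-like cells 3 of 20 checkpoint genes lay upward, among them Cd200 at 36.7 and 99 CPM, and 2 of 16 regulators did, against 9.36% of all genes. In macrophage-like cells 1 of 23 checkpoint genes lay upward and 3 downward, among them Nt5e, which encodes CD73, at 48.6 and 23.4 CPM, where 7.02% of all genes lay past 2-fold. Of 19 regulators there, 1 lay upward, Tox, at 1.63 and 10.6 CPM on 4 and 30 UMIs. In neutrophil-like cells 3 of 17 checkpoint genes and 2 of 13 regulators lay upward, against 16.9% of all genes. Among these regulators was Socs1, a feedback inhibitor of cytokine signalling, at 42.4 and 95.3 CPM. In tumour-like cells 9 of 31 checkpoint genes lay upward and 2 downward, and 4 of 23 regulators upward, among them Ifng, Tbx21 and Batf, where 7.92% of all genes lay past 2-fold. The genes named there by size stood low in each library, such as Icos at 0.0400 and 0.486 CPM and Ifng at 0.0333 and 0.314 CPM. The T markers were also higher in knockout tumour-like clusters, and their part in these counts was not tested.

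The genes most like each member were sought over 8 named classes of at least 50 cells in each library, with both libraries as points, on log2 of CPM plus 1 among 14318 genes. CD8-like cells were the only T or NK class among the 8, as the CD4-like, Foxp3 T-like and NK-like classes had fewer than 50 control cells. For the receptors, a high r therefore cannot be told apart from a gene that is high in CD8-like cells alone. The Foxp3 T-like class, where Ctla4 was highest, had no part in it. Pearson's r over these 16 points, in which libraries are shared, was highest for Zap70 with Pdcd1 (0.976), Gm19585 with Ctla4 (0.952), Tigit with Lag3 (0.966) and Id2 with Havcr2 (0.922). For the ligands it was Gla with Cd274 (0.956), Myo1f with Pdcd1lg2 (0.979), Rtp4 with Lgals9 (0.966), Tmsb10 with Pvr (0.979) and Palld with Nectin2 (0.943). For Lag3 the second and for Tigit the first gene in rank was also a member, Pdcd1 (0.960) and Lag3.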

How the data were processed

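Live cells of pooled tumours (5 mice a genotype, 1 library each) were profiled with a 10x Genomics 3′ kit, per the labels' protocols. The deposited matrices hold UMI counts per gene and cell barcode, not normalized, and per the file headers come from Cell Ranger 8.0.0, while the submitters' processing notes name Cell Ranger 3.1.3 and build mm10. The cell filter asked for 500 genes or more and no more than 15% of UMIs from mitochondrial genes. Doublets called by Scrublet (expected rate 0.08), 148 in control (1.27%) and 341 in knockout (3.16%), were removed. In scanpy 1.11.5, counts were scaled to 10000 a cell and put on a log scale. The members were left out of the 2000 most variable genes, from which 30 principal components and 15 neighbours gave Leiden clusters at resolution 1. Leukocytes, and then T and NK cells, were clustered again.

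Clusters were named from 22 marker lists with at least 3 detected markers, and the scoring and its margins (0.05 for all cells, 0.1 for leukocytes) were set after the clusters had been seen. The unnamed clusters held 0.964% of control and 5.67% of knockout cells, and named classes are rebuilt here, not the authors'. The members and gene lists were chosen with earlier results of these data known. UMIs were summed by class and library. Levels have exact Poisson, shares Clopper-Pearson and ratios exact conditional intervals at 95%, all for counting error only. A count of 0 allows 3 counts of the total. Past 2-fold was counted among genes with at least 20 UMIs over both libraries. All 10 members are named, and of the lists those past 2-fold with at least 4 UMIs in each library, up to 5 in each direction. For co-detection and shares, cells were thinned to 1000 or 2000 UMIs. The ratio calculation was tested on simulated data. Symbols were placed on GENCODE M21 (GRCm38). Alternatives were looser and stricter cell filters, resolution 0.5, doublets kept, members left among the variable genes, cells weighted alike, cells of at least 2000 UMIs and UMI gates for T and NK classes. Weighting clusters alike, and Cd274 in neutrophil-like cells, were added after seeing the data. Some results on other genes are not reported here.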

Additional observations from a re-analysis of the deposited data

Results flagged for a closer look

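Of the members, 5 lay on opposite sides of no change in different cell classes, each with a counting interval that left out no change, and these differences between classes were not tested. Cd274 had a log2 ratio of knockout over control of 2.03 in neutrophil-like, 0.66 in tumour-like and 0.21 in C1q macrophage-like cells, against -0.60 in monocyte-like and -0.77 in CD4-like cells. Havcr2 had 0.77 in tumour-like cells, against -0.68 in CD8-like and -1.81 in Foxp3 T-like cells. With the 11 tumour-like clusters weighted alike the tumour-like value was 0.12, and the Foxp3 T-like value rests on 12 UMIs in 19 control cells. Ctla4 had 1.88 in C1q macrophage-like and 0.71 in tumour-like cells, against -0.30 in CD8-like cells. Lag3 had 0.72 in tumour-like cells, against -0.58 in CD8-like cells. Pdcd1 had 1.71 in tumour-like cells, against -0.50 in CD4-like cells. The tumour-like values of Pdcd1, Lag3 and Ctla4 stand on levels under 3 CPM in each library. Of the 35 knockout Ctla4 UMIs in C1q macrophage-like cells, 27 came from 5 cells of cluster b2, and in cluster b0 the ratio was 1.15 (0.387 to 3.36).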

How the results depend on the processing

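Of the values recomputed for the main results (receptor sums, the chief ligand levels and the shares of cells), 77 stayed within the counting error, 23 moved further and 2 turned a ratio whose interval had left out no change. The sign changed in 6 of 92 such ratios, among them Cd274 in dendritic-like cells (-0.28 to 0.12), whose interval held no change. For the other members and classes it changed in 52 of 422. No paired analysis was possible because each genotype had 1 library. The receptor sum in CD8-like cells kept its direction throughout (-0.46 to -0.21, the last with clusters weighted alike). In CD4-like cells it was -0.94 with the looser and -0.62 with the stricter filter, -0.62 with doublets kept and -0.73 with the UMI gate. In Foxp3 T-like cells it reversed to 0.62 with doublets kept, and was -0.78 with the gate. In NK-like cells it was -1.40 with cells weighted alike and with the gate. Cd274 in macrophage-like cells (0.28) was 0.13 with the looser filter, 0.08 with cells weighted alike and -0.01, reversed, with clusters weighted alike. Clusters weighted alike gave 0.28 for Cd274 and -0.22 for Pvr in tumour-like cells, and reversed Lgals9 there to -0.01. Cells weighted alike gave -0.11 for Pvr and -0.41 for Nectin2. Cd274 in neutrophil-like cells was 5.27 with the stricter filter, 3.77 in cells of at least 2000 UMIs, 1.45 with cells and 0.99 with clusters weighted alike. Ctla4 in CD8-like cells reversed to 0.06 with the looser filter. The share of CD8-like cells with at least 2 receptors was 61.8% in control and 41.1% in knockout at 2000 UMIs, 61.2% and 55.2% unthinned, and 24.6% in knockout with the looser filter. The cause of these changes was not tested. Control classes of 19 to 36 cells limit what can be seen.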
